A study of Mus musculus with 35 samples.

Results

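Genes of fatty acid oxidation and ketone body formation were followed in livers of BALB/c mice that had received silica particles. The set was a fixed list of 35 gene symbols, from the nuclear receptor Ppara to the peroxisomal protein Pex11a, each read from the probe set that the platform annotation gives to that gene alone and, where there were several, from the one with the highest mean signal. Such a probe set was listed for 34 of the 35 genes (Acsl1 had none). All 34 passed the filter on low signal. They were tested together with the other genes of the array, 12670 in all out of 18194 with a probe set. Each of 35 mice gave 1 array of total RNA from the left lateral liver, taken 6 h after 1 intravenous injection. There were 7 groups of 5 mice: deionized water as vehicle control, the silica particle SP70 at 10, 20 or 40 mg/kg, SP300 at 10 or 200 mg/kg, and SP30 at its only dose of 10 mg/kg. All mice were of 1 strain, and the labels used here give neither age nor sex. The design text sets a dose series of SP70 beside a comparison of the 3 particles, once at 10 mg/kg and once at doses it calls toxic. The toxic dose of SP30 was 10 mg/kg, that of SP70 was 40 mg/kg and that of SP300 was 200 mg/kg.

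Liver cells take up fatty acids, bind them to the carrier Fabp1 and activate them to acyl-CoA, which crosses into mitochondria on carnitine and is shortened there by repeated rounds of dehydrogenation, hydration, a second dehydrogenation and thiolysis. Peroxisomes shorten very long-chain and branched fatty acids with a separate enzyme set and pass the products on, and the acetyl-CoA made in liver mitochondria feeds ketone bodies that other tissues burn. The nuclear receptor PPARA and its coactivator PGC-1alpha, the product of Ppargc1a, are known to raise transcription of many of these genes during fasting.

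With no added scaling, most of these genes fell with SP30 and with the highest dose of SP70, and fewer in the other groups. Against control, 24 of the 34 genes fell and 1 rose after SP70 at 40 mg/kg, 24 fell and 1 rose after SP30, and 16 fell and 2 rose after SP300 at 200 mg/kg. After SP70 at 20 mg/kg 16 fell and 0 rose. The median log2 difference of the 34 genes was -0.31 after SP70 at 40 mg/kg, -0.31 after SP30, -0.17 after SP300 at 200 mg/kg and -0.21 after SP70 at 20 mg/kg. The median for SP70 at 40 mg/kg depended on the scaling, being -0.24 with arrays centred on their medians and -0.18 with quantile normalization. That for SP70 at 20 mg/kg was -0.24 and -0.20, in that order. The lead of 40 over 20 mg/kg in the count of falls depended on the scaling too. With centred arrays 20 genes fell at 40 mg/kg and 19 at 20 mg/kg, and with quantile normalization 17 fell at each dose. After SP30 22 and 25 fell, in that order. Fewer fell after SP300 at 200 mg/kg than after SP70 at 40 mg/kg under either scaling. Ppargc1a fell by 76.2% after SP70 at 40 mg/kg. In the same comparisons, 28.8% of all genes tested fell and 15.6% rose after SP70 at 40 mg/kg, 31.3% and 18.1% with SP30, 18.1% and 12.6% after SP300 at 200 mg/kg, and 20.9% and 18.8% after SP70 at 20 mg/kg. The median over all genes tested was -0.09, -0.12, -0.06 and -0.03, in that order.

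With the lower doses, few of the 34 genes passed the test. After SP70 at 10 mg/kg 0 of 34 fell and 0 rose, against 5.7% of all genes that fell and 12.5% that rose, and the members' median log2 difference was -0.01. After SP300 at 10 mg/kg 1 rose and 0 fell, against 0.923% and 0.245% of all genes, and the median was 0.15 with 3 of 34 genes below 0. With centred arrays and quantile normalization, in that order, these medians were -0.08 and -0.11 for SP70 and 0.11 and 0.05 for SP300. For SP70 the count of genes called was 2 with centred arrays, 3 with quantile normalization and 1 without control mouse 1, 4 or 5 or treated mouse 4. For SP300 it was 0 without control mouse 1, 2 or 3 or treated mouse 2 or 3, and 2 without treated mouse 1 or 4. Here and below, rose and fell mean an adjusted p under 0.05 in limma's moderated test, with the Benjamini-Hochberg adjustment over all 12670 genes. Log2 differences are of log2(signal + 12.5) unless another processing is named. Where ± or SE follows the log2 difference of a gene, it gives the standard error (SE), and some differences are given without it. All 6 comparisons with control use the same 5 control mice, so their values are not independent of each other. The heatmap of log2 differences shows the 34 genes by compartment and group.

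**Figure D1:**
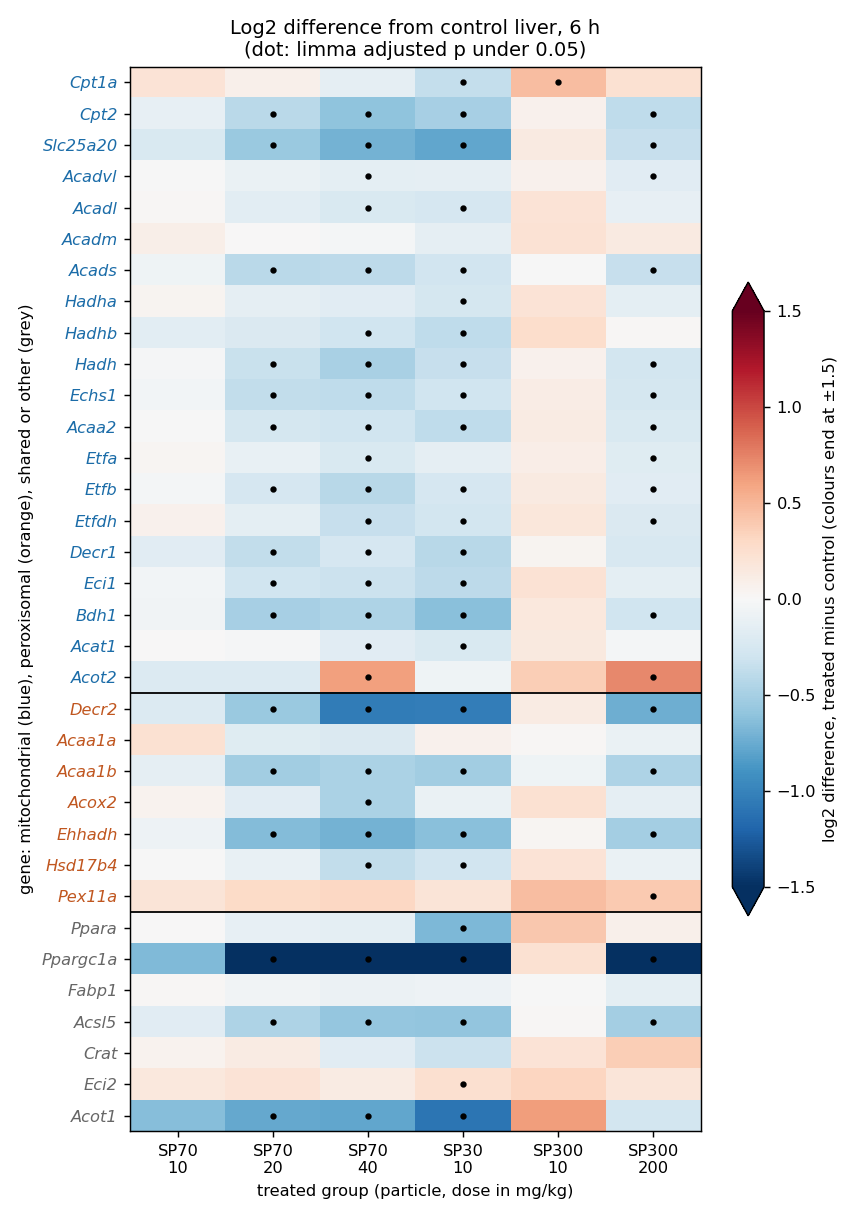
Log2 difference from control of the 34 genes (grouped as mitochondrial, peroxisomal and shared or other) in the 6 treated groups, on a colour scale in log2 units that ends at 1.5 on either side, with a dot where limma's adjusted p was under 0.05. With no added scaling, most falls with a dot are in the columns of SP70 at 40 mg/kg and SP30 with 24 each. The column of SP70 at 10 mg/kg has no dot and that of SP300 at 10 mg/kg has 1.

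Median signals of the arrays ran from 149 to 180, arrays within a group correlated at 0.962 to 0.976, and 0 pairs held identical values. The mean signals of the 34 probe sets ran from 818 to 106230. Fabp1, Acaa1b and Hadh lay on 30 or more arrays above 48037, the level that 0.5% of all values exceeded, where array signals may saturate. All 14 hepatocyte markers tested, such as the albumin gene, had a signal of at least 322 on every array. Their summed signal ran from 845431 to 899454 in control mice, 786645 to 1008562 and 843528 to 918918 after SP70 at 10 and 20 mg/kg, 733369 to 880649 after SP70 at 40 mg/kg, 846780 to 941816 after SP30, 808858 to 1019891 after SP300 at 10 mg/kg and 743982 to 855898 after SP300 at 200 mg/kg. Of the 14, 2 fell after SP70 at 40 mg/kg, 2 fell and 2 rose after SP30, and 7 fell and 1 rose after SP300 at 200 mg/kg; 1 fell and 1 rose after SP70 at 10 and at 20 mg/kg.

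Markers of other liver cells moved with the same groups. The summed signal of 11 Kupffer cell markers was 26993 to 39043 in control mice, 10425 to 17651, 2830 to 5175 and 1866 to 3057 after SP70 at 10, 20 and 40 mg/kg, 8252 to 18607 after SP30, 29695 to 42782 after SP300 at 10 mg/kg and 1929 to 2347 after SP300 at 200 mg/kg. That of 8 neutrophil markers was 1113 to 3243 in control mice, 18843 to 26955, 19877 to 30630 and 26709 to 64956 after the 3 doses of SP70, 50012 to 68207 after SP30, 1378 to 2413 after SP300 at 10 mg/kg and 10573 to 25990 after SP300 at 200 mg/kg. After SP70 at 10 mg/kg 8 of 11 Kupffer markers fell and 6 of 8 neutrophil markers rose, where 5.7% of all genes fell and 12.5% rose. In that group 0 of the 34 oxidation genes passed the test. That 0 depended on the scaling: 2 of the 34 fell there with centred arrays and 3 with quantile normalization, against 10.5% and 10.3% of all genes. After SP70 at 20 and 40 mg/kg, SP30 and SP300 at 200 mg/kg, 10, 10, 9 and 10 Kupffer markers fell and 7, 7, 7 and 5 neutrophil markers rose. Of all genes, 20.9%, 28.8%, 31.3% and 18.1% fell in these groups and 18.8%, 15.6%, 18.1% and 12.6% rose. In addition, 4 of 4 monocyte markers rose in all of these groups and after SP70 at 10 mg/kg. Endothelial markers (9 tested) fell in 2, 4, 6, 6 and 5 cases and rose in 1, 2, 1, 1 and 2 after SP70 at 10, 20 and 40 mg/kg, SP30 and SP300 at 200 mg/kg, and stellate markers (7 tested) fell in 3, 4, 4, 5 and 4 with 0 rising. After SP300 at 10 mg/kg 0 markers of any of these lists passed the test. The part of these shifts in the results on oxidation genes was not tested, and in bulk liver RNA fewer cells of a type and less RNA per cell cannot be told apart.

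Ppargc1a had the largest fall of the 34 genes in each of the 4 groups where it passed the test. Its promoter window from RefSeq (mouse build GRCm38.p6, chr5:51567676-51567975, minus strand, 250 bases before to 50 bases after the start) is shown because no other member fell as far. The capitals mark CGTCA, the reverse complement of TGACG, which is the core of the cAMP response element that CREB binds.
Ppargc1a: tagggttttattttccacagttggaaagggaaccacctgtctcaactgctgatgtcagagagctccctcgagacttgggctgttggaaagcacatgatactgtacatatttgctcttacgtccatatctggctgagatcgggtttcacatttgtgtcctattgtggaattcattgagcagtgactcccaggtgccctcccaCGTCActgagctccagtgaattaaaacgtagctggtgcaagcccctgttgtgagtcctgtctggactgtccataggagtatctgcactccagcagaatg
In control mice the Ppargc1a signal was 2205, 1616, 1382, 1074 and 1042. After SP70 it was 1020, 427, 954, 1268 and 1017 at 10 mg/kg, 560, 326, 794, 379 and 455 at 20 mg/kg and 328, 305, 348, 354 and 298 at 40 mg/kg. SP70 at 10 mg/kg overlapped control, with 4 of its mice between 954 and 1268, whereas every mouse given 20 or 40 mg/kg was below every control mouse. The log2 difference was -0.66 ± 0.26 at 10 mg/kg (adjusted p = 0.0784), -1.53 ± 0.26 at 20 mg/kg (adjusted p = 1.46e-05) and -2.07 ± 0.26 at 40 mg/kg (adjusted p = 6.04e-08). At 10 mg/kg Ppargc1a did pass with quantile normalization (-0.75, adjusted p = 0.045) and centred arrays (-0.74, adjusted p = 0.0465). It also passed there with the mean of all probe sets (-0.74, adjusted p = 0.0282) and without control mouse 5 or treated mouse 4. After SP30 the signal was 211, 270, 307, 337 and 500, and after SP300 it was 1691, 1732, 1820, 1069 and 2151 at 10 mg/kg and 833, 370, 420, 437 and 314 at 200 mg/kg. SP30 and the higher dose of SP300 did not overlap control and the lower dose of SP300 did. Ppargc1a fell by 2.13 on the log2 scale after SP30 (SE 0.26, adjusted p = 2.68e-08) and by 1.63 after SP300 at 200 mg/kg (SE 0.26, adjusted p = 9.95e-06), and the difference was 0.23 ± 0.26 after SP300 at 10 mg/kg (adjusted p = 0.767). The 4 other probe sets of Ppargc1a also fell after SP70 at 40 mg/kg, by 1.36 to 2.45 on the log2 scale.

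Ppara itself did not follow its coactivator in the same way. Its signal was 7225, 5742, 8892, 10046 and 6507 in control mice, 8283, 7012, 6965, 6360 and 5605 after SP70 at 40 mg/kg and 4206, 3810, 6445, 4233 and 5243 after SP30. The mice given SP70 at 40 mg/kg lay within the control range but for 1 just below it, and 4 of 5 mice given SP30 lay below every control mouse. Ppara fell after SP30 (log2 difference -0.68 ± 0.15, adjusted p = 0.000311), whereas the differences were 0.01, -0.13 and -0.15 after SP70 at 10, 20 and 40 mg/kg and 0.08 after SP300 at 200 mg/kg, each with SE 0.15 and adjusted p of 0.453 or more. After SP300 at 10 mg/kg the signals were 7373, 11959, 13326, 7530 and 11157, a log2 difference of 0.41 ± 0.15 that did not pass the test (adjusted p = 0.197). Set directly against each other, SP30 gave less Ppara signal than SP70 at 40 mg/kg (log2 difference -0.53, 95% interval -0.84 to -0.22, adjusted p = 0.0291). Without SP30 mouse 4 or SP70 mouse 3 this direct comparison called 0 of the 34 genes, and without SP70 mouse 2 it called 1.

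**Figure D2:**
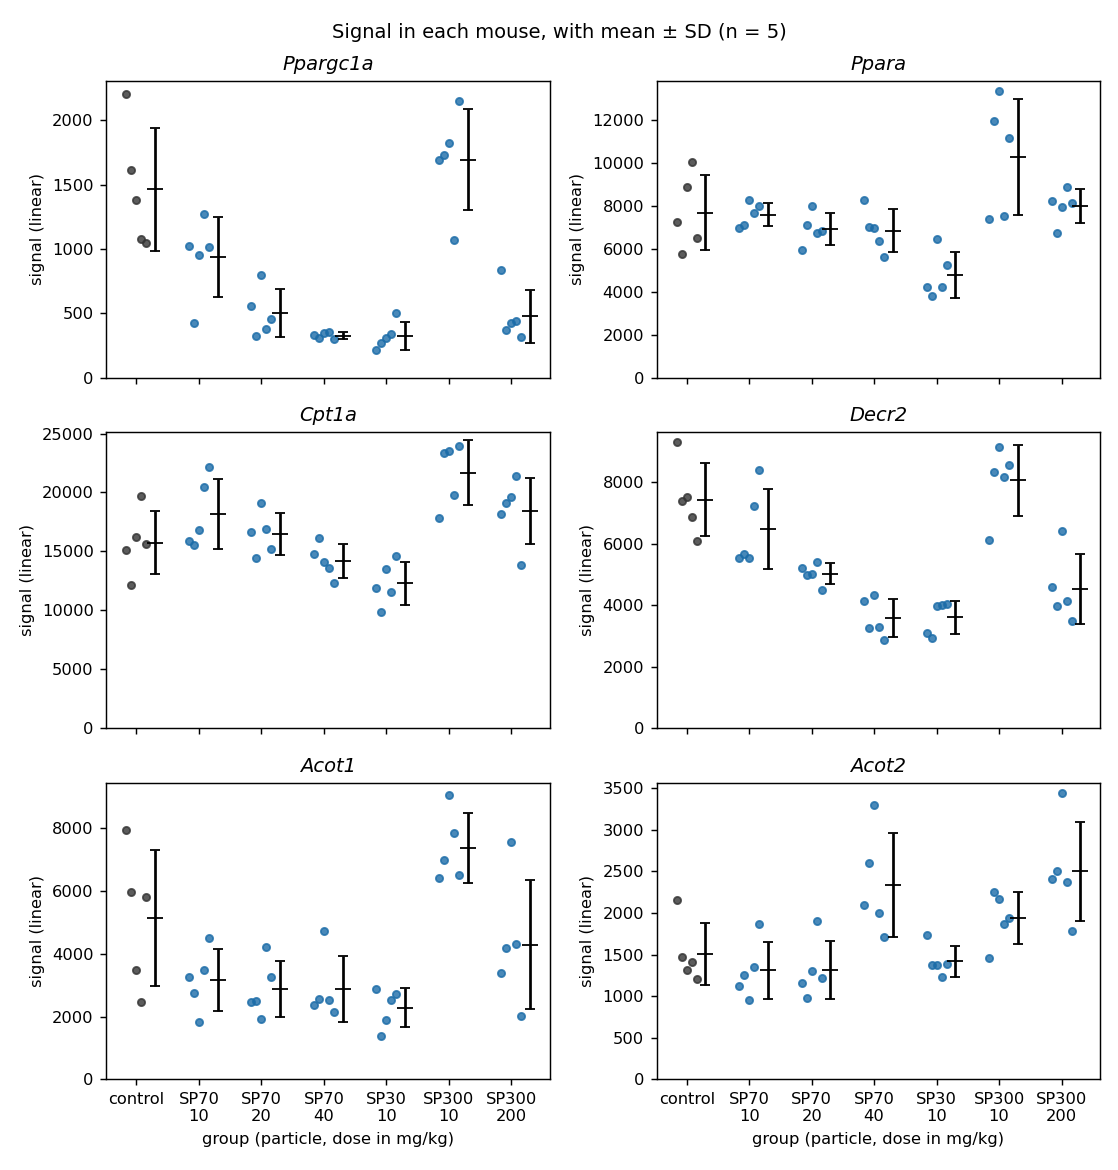
Signal of Ppargc1a, Ppara, Cpt1a, Decr2, Acot1 and Acot2 in each mouse (points, array signal on a linear axis from 0) by group, with the mean and SD of 5 mice as bars. Ppargc1a lies at 298 to 354 after SP70 at 40 mg/kg and at 1042 to 2205 in control mice, whereas Ppara is at 3810 to 6445 after SP30 and at 5742 to 10046 in control mice.

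Fabp1, the fatty acid binding protein of the hepatocyte cytosol, passed the test in 0 of the 6 comparisons with control. Its mean signal was 109670 ± 3710 (SD, n = 5) in control mice, 103350 ± 6828 after SP70 at 40 mg/kg and 104397 ± 7176 with SP30, with overlapping ranges and all arrays above the level where signals may saturate. Its promoter window (chr6:71199629-71199928, plus strand) is shown because Fabp1 is a standard PPARA target and 1 of 2 members whose window holds a direct-repeat element. The longer run of capitals is a match, on the opposite strand, to GGNCANAGGNCA, a form of the repeat of nuclear receptor half-sites that PPARA and its partner RXR bind, beginning 67 bases before the start site. Its first letters, TGACCT, are also a match to the half-site AGGTCA read on that strand, and the shorter run of capitals is another such match.
Fabp1: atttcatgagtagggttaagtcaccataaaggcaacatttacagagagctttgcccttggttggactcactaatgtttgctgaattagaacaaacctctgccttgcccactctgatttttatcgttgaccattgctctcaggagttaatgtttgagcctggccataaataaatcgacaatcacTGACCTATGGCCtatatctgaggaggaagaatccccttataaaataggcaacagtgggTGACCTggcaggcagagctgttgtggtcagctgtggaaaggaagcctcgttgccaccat
Acsl5, an acyl-CoA synthetase, fell in 4 groups. Its signal was 20110, 23213, 18865, 18119 and 15211 in control mice and 15695, 10885, 14250, 11539 and 11667 after SP70 at 40 mg/kg, where 1 mouse reached above the lowest control mouse. The log2 difference was -0.58 ± 0.14 there (adjusted p = 0.00103), -0.59 ± 0.14 after SP30, -0.51 ± 0.14 after SP300 at 200 mg/kg and -0.46 ± 0.14 after SP70 at 20 mg/kg.

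In the carnitine shuttle, the inner-membrane steps fell and the outer-membrane step mostly did not. Slc25a20, the carnitine-acylcarnitine translocase of the inner membrane, had signals of 18289, 16077, 16861, 16579 and 18740 in control mice, 10479, 10966, 12583, 10391 and 8927 after SP70 at 40 mg/kg and 9917, 8423, 10991, 9560 and 11964 after SP30. Neither treated group overlapped control. The log2 difference was -0.55 ± 0.10, -0.70 ± 0.10, -0.77 ± 0.10 and -0.35 ± 0.10 after SP70 at 20 and 40 mg/kg, SP30 and SP300 at 200 mg/kg (adjusted p = 3.2e-05, 4.95e-07, 6.61e-08 and 0.00707). Cpt2, which takes the acyl group off carnitine inside the mitochondrion, had signals of 10092, 10341, 9191, 8288 and 9232 in control mice and 5571, 6845, 6119, 5785 and 6629 after SP70 at 40 mg/kg, with no overlap. It fell in the same 4 groups, by 0.41, 0.61, 0.50 and 0.38 on the log2 scale (SE 0.08 each). These Cpt2 calls rest on 1 of its probe sets, with a mean signal of 7883, the only other one having 331. With the mean of both the differences were -0.18, -0.20, -0.35 and -0.05 (adjusted p = 0.51, 0.443, 0.136 and 0.879).

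Cpt1a, the outer-membrane transferase that sets the rate of entry into mitochondria, had signals of 15125, 12117, 16213, 19665 and 15652 in control mice. After SP70 at 40 mg/kg the Cpt1a signal was 14775, 16160, 14121, 13566 and 12339, within the control range, and after SP30 it was 11883, 9903, 13485, 11574 and 14639, with all 5 mice below 4 of the 5 control mice. Cpt1a fell after SP30 by 0.35 on the log2 scale (SE 0.12, adjusted p = 0.0169). That call was lost without control mouse 4 (-0.27, adjusted p = 0.0766) or SP30 mouse 2 (-0.28, adjusted p = 0.0713), and with centred arrays (-0.27, adjusted p = 0.0759) or quantile normalization (-0.25, adjusted p = 0.106). After SP300 at 10 mg/kg it was the 1 gene of the 34 that rose: signals of 17857, 23341, 23505, 19754 and 23974, 4 of them above every control mouse, gave a log2 difference of 0.47 ± 0.12 (adjusted p = 0.0485). This call was lost without control mouse 1, 2, 3 or 5 or treated mouse 2, 3 or 5 (log2 0.38 to 0.48, adjusted p 0.0729 to 0.175), and under 6 other settings of the processing (log2 0.38 to 0.49, adjusted p 0.0514 to 0.179). The differences were 0.21, 0.07 and -0.14 after SP70 at 10, 20 and 40 mg/kg and 0.23 after SP300 at 200 mg/kg, none past the threshold. Crat, a carnitine acetyltransferase of mitochondria and peroxisomes, passed the test in 0 of the 6 comparisons with control, with differences from -0.32 to 0.36. Without control mouse 2 it rose after SP300 at 200 mg/kg (0.50, adjusted p = 0.0457).

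Of the 4 acyl-CoA dehydrogenases, which open each round of mitochondrial oxidation, the one for short chains fell most. Acads had signals of 7513, 7180, 7847, 7607 and 7323 in control mice and 5837, 5503, 5658, 6354 and 5138 after SP70 at 40 mg/kg, without overlap. It fell in 4 groups, by 0.40, 0.40, 0.29 and 0.35 on the log2 scale after SP70 at 20 and 40 mg/kg, SP30 and SP300 at 200 mg/kg (SE 0.07 each). Acadl, the long-chain enzyme, fell after SP70 at 40 mg/kg and SP30 (-0.22 and -0.25, SE 0.07), the first being -0.10 with quantile normalization (adjusted p = 0.106). Acadvl, the very long-chain enzyme, fell after SP70 at 40 mg/kg (-0.15 ± 0.06, adjusted p = 0.0436) and SP300 at 200 mg/kg (-0.17 ± 0.06, adjusted p = 0.023). The first of these Acadvl calls was lost without any 1 of the 5 control mice or treated mice 1, 2 or 3 (-0.13 to -0.15, adjusted p 0.053 to 0.0863). With quantile normalization it was -0.02 (adjusted p = 0.767) and with centred arrays -0.08 (adjusted p = 0.331). The other Acadvl call was lost without treated mouse 2 or 5 (-0.17 and -0.16, adjusted p = 0.0526 and 0.0606) and with centred arrays (-0.14, adjusted p = 0.082).

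Acadm, the medium-chain dehydrogenase, passed the test in 0 of the 6 comparisons with control. Its signal was 41220, 36242, 34194, 34480 and 35760 in control mice, 36508, 36627, 34726, 35943 and 33558 after SP70 at 40 mg/kg and 32203, 32336, 32165, 35824 and 33078 after SP30. The first of these groups lay almost within the control range, and 4 of the 5 SP30 mice lay below it. The log2 difference was -0.03 ± 0.07 after SP70 at 40 mg/kg (adjusted p = 0.737, 95% interval -0.18 to 0.11) and -0.13 ± 0.07 after SP30 (adjusted p = 0.126, interval -0.28 to 0.01). After SP300 at 10 and 200 mg/kg it was 0.22 and 0.13 (adjusted p = 0.138 and 0.163). Acadm rose without treated mouse 4 at 10 mg/kg (0.27, adjusted p = 0.0489) and with quantile normalization at 200 mg/kg (0.19, adjusted p = 0.0177).

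The enzymes of the later mitochondrial steps fell by less than 0.5 on the log2 scale. Hadh, the 3-hydroxyacyl-CoA dehydrogenase of shorter chains, had signals of 65537, 65504, 67346, 63136 and 59611 in control mice and 45151, 45350, 44159, 49545 and 45460 after SP70 at 40 mg/kg, without overlap. Its log2 difference was -0.48 ± 0.06 there (adjusted p = 1e-08), -0.35 ± 0.06 after SP30, -0.33 ± 0.06 after SP70 at 20 mg/kg and -0.28 ± 0.06 after SP300 at 200 mg/kg, and its signals lay near the level where arrays may saturate. Echs1, the short-chain hydratase, and Acaa2, the mitochondrial 3-ketoacyl-CoA thiolase, fell in the same 4 groups, Echs1 by 0.37, 0.38, 0.30 and 0.26 and Acaa2 by 0.26, 0.29, 0.38 and 0.22 on the log2 scale, in the order SP70 at 20 and 40 mg/kg, SP30 and SP300 at 200 mg/kg.

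The trifunctional protein, which carries out the last 3 steps on long chains, is built of the products of Hadha and Hadhb. Hadha had signals of 7072, 6729, 6278, 6280 and 6646 in control mice, 5782, 5924, 5448, 5843 and 6312 after SP70 at 40 mg/kg and 5566, 5229, 5421, 5560 and 5702 after SP30. All SP30 mice were below all control mice, and 1 mouse given SP70 at 40 mg/kg reached the control range. Hadha fell after SP30 (-0.26 ± 0.08, adjusted p = 0.00721; with centred arrays -0.18, adjusted p = 0.0545), and the difference was -0.17 ± 0.08 after SP70 at 40 mg/kg (adjusted p = 0.0864). Hadhb fell after SP30 (-0.38 ± 0.10, adjusted p = 0.00179) and after SP70 at 40 mg/kg (-0.30 ± 0.10, adjusted p = 0.0154), the latter call being lost without control mouse 5 (-0.24, adjusted p = 0.0593) or treated mouse 2 or 5 (-0.26 and -0.25, adjusted p = 0.0505 and 0.0565). Quantile normalization and the mean of all Hadhb probe sets ended it too (-0.18 and -0.20, adjusted p = 0.103 and 0.0594). After SP300 at 200 mg/kg the Hadhb difference was 0.02 ± 0.10.

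All 3 genes of electron transfer from the dehydrogenases to the respiratory chain fell after SP70 at 40 mg/kg, Etfdh by 1 of its 2 probe sets. Etfb and Etfa, the subunits of the electron transfer flavoprotein, fell there by 0.42 and 0.23 on the log2 scale, and Etfdh, its ubiquinone oxidoreductase, by 0.35 (SE 0.06 to 0.07). Etfb had signals of 23556, 24493, 26065, 22967 and 22130 in control mice and 17859, 18515, 16946, 18983 and 16937 after SP70 at 40 mg/kg, without overlap. After SP30 Etfb and Etfdh fell (-0.25 and -0.27) and Etfa was at -0.14 ± 0.06 (adjusted p = 0.0596). After SP300 at 200 mg/kg all 3 fell, by 0.18, 0.19 and 0.22 for Etfb, Etfa and Etfdh. Of these, the Etfb call was lost without any 1 of control mice 1, 2 and 3 or treated mice 2, 3, 4 and 5 (-0.14 to -0.18, adjusted p 0.0531 to 0.123). Centred arrays (-0.14, adjusted p = 0.109) and no filter (adjusted p = 0.06) ended it too. So did a fit of only the compared groups (adjusted p = 0.0608) and the replicate block (adjusted p = 0.0539). The Etfdh call was lost without control mouse 1 (-0.19, adjusted p = 0.0517). With the mean of both Etfdh probe sets, the other having a mean signal of 94.0, the difference was -0.15 after SP70 at 40 mg/kg (adjusted p = 0.685), 0.44 with SP30 (adjusted p = 0.155) and 0.30 after SP300 at 200 mg/kg (adjusted p = 0.426).

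Among the 4 auxiliary enzymes for unsaturated fatty acids, the peroxisomal reductase Decr2 fell furthest in each group where it passed the test. Its promoter window (chr17:26090115-26090414, minus strand) is shown because Decr2 had the largest fall of the peroxisomal genes after SP70 at 40 mg/kg, SP30 and SP300 at 200 mg/kg. It holds no match to any of the 4 motifs searched, so it has no capitals.
Decr2: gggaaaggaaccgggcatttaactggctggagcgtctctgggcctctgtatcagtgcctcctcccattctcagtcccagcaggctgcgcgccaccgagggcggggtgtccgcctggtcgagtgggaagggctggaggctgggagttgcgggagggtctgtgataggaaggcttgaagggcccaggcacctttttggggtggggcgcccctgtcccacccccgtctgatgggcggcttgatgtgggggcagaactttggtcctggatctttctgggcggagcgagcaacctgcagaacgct
Decr2 had signals of 9323, 7404, 7535, 6864 and 6088 in control mice, 5226, 4982, 5033, 5403 and 4512 after SP70 at 20 mg/kg, 4159, 3255, 4326, 3306 and 2885 after SP70 at 40 mg/kg and 3118, 2936, 3977, 4014 and 4033 after SP30. All 3 groups lay wholly below control, and the mice given SP70 at 40 mg/kg wholly below those given 20 mg/kg. The log2 difference was -0.55 ± 0.14, -1.05 ± 0.14 and -1.04 ± 0.14 (adjusted p = 0.0022, 2.3e-07 and 2.32e-07). After SP300 at 200 mg/kg the signals were 4590, 3969, 6435, 4140 and 3489, of which 1 reached the control range (-0.73 ± 0.14, adjusted p = 0.000147), and after SP70 and SP300 at 10 mg/kg the differences were -0.21 ± 0.14 and 0.12 ± 0.14 (adjusted p = 0.362 and 0.784).

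The mitochondrial counterparts of Decr2 fell less. Decr1, the mitochondrial 2,4-dienoyl-CoA reductase, fell after SP70 at 20 and 40 mg/kg and SP30 (-0.37, -0.25 and -0.42, SE 0.09), the call at 40 mg/kg being lost without control mouse 5 (-0.22, adjusted p = 0.0731) or treated mouse 1 or 5 (-0.23 and -0.24, adjusted p = 0.0567 and 0.0523). It was also lost with quantile normalization (-0.09, adjusted p = 0.484) and centred arrays (-0.19, adjusted p = 0.131). Eci1, the mitochondrial enoyl-CoA isomerase, fell in the same 3 groups (-0.30, -0.32 and -0.39, SE 0.08). With quantile normalization the difference at 40 mg/kg was -0.15 (adjusted p = 0.0896). Eci2, an isomerase found in both organelles, was higher: it rose after SP30 by 0.24 ± 0.09 (adjusted p = 0.0219), a call lost without control mouse 2 (0.20, adjusted p = 0.073) or treated mouse 3, 4 or 5 (0.20 to 0.21, adjusted p 0.056 to 0.0684). In the other 5 groups the Eci2 difference was 0.12 to 0.33 and did not pass the test.

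The core peroxisomal enzymes fell in part. Ehhadh, the bifunctional hydratase and dehydrogenase of the straight-chain pathway, had signals of 27531, 26525, 19882, 16482 and 18413 in control mice, 13983, 11379, 14804, 13193 and 12094 after SP70 at 40 mg/kg and 11365, 13644, 13809, 14267 and 16703 after SP30. Control mice were widely spread, yet the only treated mouse of these to reach them was the highest SP30 mouse. Ehhadh fell after SP70 at 20 and 40 mg/kg, SP30 and SP300 at 200 mg/kg by 0.65, 0.71, 0.62 and 0.50 on the log2 scale (SE 0.12 each, adjusted p = 7.34e-05, 1.52e-05, 8.36e-05 and 0.00196). After SP70 and SP300 at 10 mg/kg the difference was -0.08 and 0.03.

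Acaa1b and Acaa1a encode near-identical peroxisomal thiolases, and only one of them passed the test. Acaa1b had signals of 86042, 77128, 84424, 79429 and 72035 in control mice, 56227, 55698, 59993, 65080 and 51234 after SP70 at 40 mg/kg and 58283, 42460, 59777, 49855 and 71974 after SP30, all below control though 1 SP30 mouse only just. It fell by 0.52, 0.47, 0.52 and 0.46 on the log2 scale after SP70 at 20 and 40 mg/kg, SP30 and SP300 at 200 mg/kg (SE 0.11, adjusted p = 0.000243, 0.000642, 0.000182 and 0.00156). Acaa1a passed in 0 of 6 comparisons, with differences from -0.21 to 0.23 (SE 0.10). It rose after SP70 at 10 mg/kg without control mouse 1 (0.30, adjusted p = 0.0377). After SP70 at 40 mg/kg it fell without treated mouse 3 (-0.26, adjusted p = 0.0427). Since the sequences are alike, signal of one may come from the other, and the gap between them is uncertain.

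Of the remaining peroxisomal genes, Acox2, the oxidase of branched chains and bile acid precursors, fell after SP70 at 40 mg/kg alone among the 6 comparisons with control. Its signals were 16070, 17531, 15588, 15451 and 17723 in control mice, 12068, 12873, 9390, 13591 and 11762 after SP70 at 40 mg/kg and 11624, 14507, 16738, 19931 and 15127 after SP30, so that the first group lay below control and the other spread across it. The log2 difference was -0.47 ± 0.10 (adjusted p = 0.00027) and -0.10 ± 0.10 (adjusted p = 0.447), and Acox2 was higher after SP30 than after SP70 at 40 mg/kg by 0.37 (95% interval 0.16 to 0.58, adjusted p = 0.0237). Hsd17b4, the D-bifunctional protein, fell after SP70 at 40 mg/kg and SP30 (-0.37 and -0.28, SE 0.06). With the mean of its probe sets it fell also after SP70 at 20 mg/kg (-0.17, adjusted p = 0.0166) and SP300 at 200 mg/kg (-0.21, adjusted p = 0.00536). The probe set used gave -0.11 and -0.10 there (adjusted p = 0.188 and 0.255). Pex11a, which takes part in the division of peroxisomes, was above the control mean in all 6 groups and rose after SP300 at 200 mg/kg (0.40 ± 0.14, adjusted p = 0.0329). The Pex11a call was lost without control mouse 1, 2, 3 or 4 or treated mouse 1, 3 or 4 (0.26 to 0.39, adjusted p 0.0586 to 0.156) and with only the compared groups in the fit (0.40, adjusted p = 0.0788), and control and treated ranges overlapped. After SP70 at 20 and 40 mg/kg Pex11a passed without control mouse 5 (0.38 and 0.40, adjusted p = 0.0406 and 0.0293). It also passed there with only the compared groups in the fit (0.29 and 0.31, adjusted p = 0.0404 and 0.0458).

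Both ketone body genes fell after SP70 at 40 mg/kg and SP30. Bdh1, the dehydrogenase that makes 3-hydroxybutyrate, had signals of 21334, 19625, 27019, 23072 and 21017 in control mice, 18235, 14586, 15723, 18915 and 13842 after SP70 at 40 mg/kg and 11731, 14944, 15035, 15652 and 15270 after SP30, without overlap. It fell by 0.50, 0.46, 0.62 and 0.30 on the log2 scale after SP70 at 20 and 40 mg/kg, SP30 and SP300 at 200 mg/kg (SE 0.09), the last call being lost without control mouse 3 (-0.23, adjusted p = 0.0538). Acat1, the mitochondrial acetoacetyl-CoA thiolase, fell after SP30 (-0.23 ± 0.06, adjusted p = 0.00305) and SP70 at 40 mg/kg (-0.16 ± 0.06, adjusted p = 0.0324), and was at -0.03 ± 0.06 after SP300 at 200 mg/kg. The Acat1 call for SP70 at 40 mg/kg was lost without control mouse 4 or 5 or treated mouse 3 or 5 (-0.14 to -0.16, adjusted p 0.0573 to 0.101). It was also lost with centred arrays (-0.10, adjusted p = 0.213), quantile normalization (-0.10, adjusted p = 0.0741) and no filter (-0.16, adjusted p = 0.0636).

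The acyl-CoA thioesterases Acot1, in the cytosol, and Acot2, in mitochondria, lie beside each other on chromosome 12 and are close copies, yet their probe sets moved apart. Both promoter windows (chr12:84009252-84009551 and chr12:83987611-83987910, plus strand) are shown for that reason. The capitals in Acot2 mark CGTCA, the reverse complement of TGACG, and Acot1 holds no match to the motifs searched.
Acot1: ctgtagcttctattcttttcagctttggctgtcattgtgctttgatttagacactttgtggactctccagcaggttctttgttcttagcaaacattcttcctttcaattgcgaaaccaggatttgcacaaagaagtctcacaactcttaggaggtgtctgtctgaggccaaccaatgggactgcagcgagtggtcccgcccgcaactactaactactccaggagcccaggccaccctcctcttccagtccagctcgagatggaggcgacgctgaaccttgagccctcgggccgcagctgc
Acot2: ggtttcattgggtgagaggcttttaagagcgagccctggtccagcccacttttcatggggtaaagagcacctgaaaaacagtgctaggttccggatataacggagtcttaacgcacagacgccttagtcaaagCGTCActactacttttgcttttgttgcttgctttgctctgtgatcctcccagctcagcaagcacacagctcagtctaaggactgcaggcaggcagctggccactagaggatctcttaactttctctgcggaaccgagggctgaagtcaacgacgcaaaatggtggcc
Acot1 had signals of 7935, 5964, 3473, 2472 and 5813 in control mice, 2371, 2570, 4725, 2539 and 2135 after SP70 at 40 mg/kg and 2864, 1392, 1885, 2530 and 2731 after SP30. Control mice spread more than 3-fold, and the groups overlapped. Acot1 fell after SP70 at 20 and 40 mg/kg (-0.77 and -0.78, SE 0.29, adjusted p = 0.0331 and 0.0274) and, further, with SP30 (-1.10 ± 0.29, adjusted p = 0.00197). The call at 20 mg/kg was lost without control mouse 1, 2 or 5 or treated mouse 1, 2 or 3 (-0.58 to -0.73, adjusted p 0.0649 to 0.125), and that at 40 mg/kg without control mouse 1, 2 or 5 or treated mouse 1, 2, 4 or 5 (-0.60 to -0.76, adjusted p 0.0501 to 0.108), with quantile normalization (-0.68, adjusted p = 0.0683) and with centred arrays (-0.71, adjusted p = 0.0513).

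Acot2 had signals of 2150, 1469, 1316, 1409 and 1203 in control mice, 2092, 2602, 3299, 2004 and 1705 after SP70 at 40 mg/kg, 1735, 1372, 1370, 1232 and 1390 with SP30 and 2405, 2509, 3440, 2372 and 1783 after SP300 at 200 mg/kg. But for 1 high control mouse, all mice given SP70 at 40 mg/kg or SP300 at 200 mg/kg exceeded control, and SP30 did not differ past the threshold. Acot2 rose after SP70 at 40 mg/kg (0.62 ± 0.19, adjusted p = 0.00656) and SP300 at 200 mg/kg (0.72 ± 0.19, adjusted p = 0.0029), with -0.07 ± 0.19 after SP30 (adjusted p = 0.8). It was lower after SP30 than after SP70 at 40 mg/kg (log2 difference -0.69, 95% interval -1.06 to -0.31, adjusted p = 0.0214).

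Mitochondrial and peroxisomal genes were set side by side as counts and as a mean per mouse, with no test, since the genes are not replicates. Of 20 mitochondrial genes 10, 16, 16 and 11 fell after SP70 at 20 and 40 mg/kg, SP30 and SP300 at 200 mg/kg, and of 7 peroxisomal genes 3, 5, 4 and 3, where 20.9%, 28.8%, 31.3% and 18.1% of all genes fell. With quantile normalization 11, 10, 16 and 11 mitochondrial and 3, 5, 4 and 3 peroxisomal genes fell, and with centred arrays 13, 13, 14 and 9 and again 3, 5, 4 and 3. The median log2 difference of the mitochondrial genes was -0.23, -0.30, -0.29 and -0.18, and that of the peroxisomal genes -0.19, -0.47, -0.28 and -0.13. The mean log2 level over control averaged -0.27 ± 0.05 (SD, n = 5) for mitochondrial and -0.43 ± 0.10 for peroxisomal genes after SP70 at 40 mg/kg, -0.32 ± 0.09 and -0.33 ± 0.15 with SP30, -0.24 ± 0.06 and -0.27 ± 0.05 after SP70 at 20 mg/kg, and -0.12 ± 0.09 and -0.23 ± 0.16 after SP300 at 200 mg/kg.

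The difference per mouse, mitochondrial minus peroxisomal, was 0.06 to 0.21 after SP70 at 40 mg/kg, with mean 0.15 ± 0.06, so each of these mice had the larger fall in peroxisomal genes. Control mice ran from -0.11 to 0.10 on the same measure, and the ranges overlapped. The mean was 0.11 ± 0.10 after SP300 at 200 mg/kg, 0.00 ± 0.07 after SP30, 0.03 ± 0.04 and -0.04 ± 0.06 after SP70 at 20 and 10 mg/kg and 0.02 ± 0.09 after SP300 at 10 mg/kg. The value depends on which genes are called peroxisomal: with Eci2 and Crat, found in both organelles, counted there, it was 0.06 after SP70 at 40 mg/kg and -0.06 after SP70 at 20 mg/kg. Within each compartment the genes spread more than the compartments differed, from -1.05 (Decr2) to 0.31 (Pex11a) among peroxisomal and from -0.70 (Slc25a20) to 0.62 (Acot2) among mitochondrial genes after SP70 at 40 mg/kg.

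**Figure D3:**
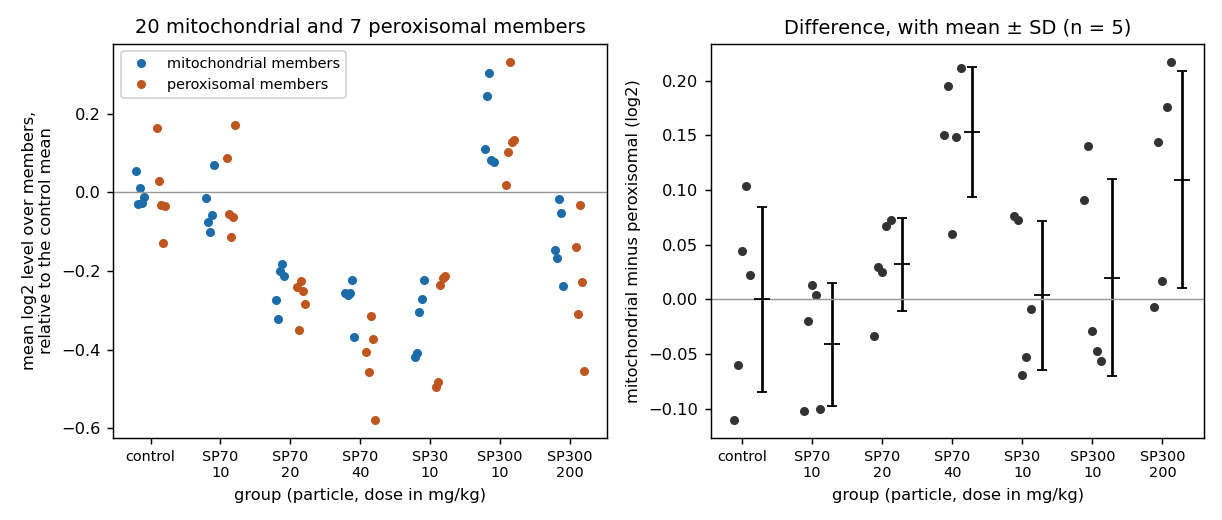
Mean log2 level over the control mean for mitochondrial and for peroxisomal genes in each mouse (left, points), by group, and the mitochondrial minus peroxisomal difference per mouse with its mean and SD over 5 mice (right), in log2 units. After SP70 at 40 mg/kg the peroxisomal points lie lower (mean -0.43) than the mitochondrial ones (mean -0.27), and after SP30 the means are -0.33 and -0.32.

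In the dose series of SP70, more genes passed the test from 10 to 20 mg/kg than from 20 to 40 mg/kg. From 10 to 20 mg/kg 14 of 34 genes fell and 0 rose, against 12% and 4.99% of all genes, led by Ppargc1a (-0.87 ± 0.26, adjusted p = 0.0195), Ehhadh (-0.57 ± 0.12) and Bdh1 (-0.44 ± 0.09). From 20 to 40 mg/kg 3 fell and 1 rose, against 8.69% and 2.79%: Decr2 (-0.50 ± 0.14, adjusted p = 0.0199), Acox2 (-0.31 ± 0.10, adjusted p = 0.0469) and Hsd17b4 (-0.26 ± 0.06, adjusted p = 0.00751) fell, all 3 of them peroxisomal, and Acot2 rose (0.83 ± 0.19, adjusted p = 0.00307). Without SP70 40 mg/kg mouse 2 or 5 the 4 calls were 2, and with arrays centred on their medians or quantile normalized the 1 call was a gene that rose and 0 genes fell. Of all genes, 3.89% and 4.64% fell under these 2 scalings and 3.92% and 4.18% rose. From 10 to 40 mg/kg 23 fell and 1 rose, against 25.3% and 5.22%. After centring 14 fell and 1 rose, against 14.0% and 10.5% of all genes. With quantile normalization 10 fell and 1 rose, against 13.6% and 11.4%.

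At the shared dose of 10 mg/kg SP30 gave the lowest levels. SP30 gave lower signal than SP70 for 24 of 34 genes and higher for 0, against 23.6% and 5.41% of all genes, and lower than SP300 for 30 and higher for 0, against 35.6% and 16.3%. Against SP70 the lowest were Ppargc1a (-1.46 ± 0.26, adjusted p = 6.48e-05), Decr2 (-0.83 ± 0.14) and Ppara (-0.69 ± 0.15), and Cpt1a was also lower (-0.56 ± 0.12, adjusted p = 0.000676). The count of 24 was 10 when arrays were centred on their medians. SP70 gave lower signal than SP300 for 7 genes and higher for 0, against 10.2% and 10.5%. Acot1 (-1.26 ± 0.29, adjusted p = 0.00155) and Ppargc1a (-0.89 ± 0.26, adjusted p = 0.0137) were lowest. This count of 7 was 14 with centred arrays and 13 with quantile normalization. Of all genes, 14.2% and 11.6% were lower under these settings and 10.2% and 11.2% higher. The count of 7 was 4 without SP300 mouse 3 and 11 without SP300 mouse 1 or 4 or SP70 mouse 5.

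The 2 doses of SP300 differed as well. From 10 to 200 mg/kg 24 of 34 genes fell and 0 rose, against 22.4% and 9.41% of all genes, with a median log2 difference of -0.34 against -0.11 for all genes. Ppargc1a fell by 1.86 on the log2 scale (SE 0.26, adjusted p = 1.32e-06), Acot1 by 0.90 (SE 0.29) and Decr2 by 0.85 (SE 0.14). Ppara, Cpt1a, Acadm and Hadhb were among the 10 that did not pass.

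At the doses called toxic, 31 of 34 genes did not pass the test between SP30 at 10 mg/kg and SP70 at 40 mg/kg. Of the others 2 genes were lower and 1 higher after SP30, against 2.03% and 3.68% of all genes, and these were Acot2, Ppara and Acox2, described above. For Ppargc1a the difference was -0.06 with a 95% interval of -0.59 to 0.48, and for Decr2 0.02 with an interval of -0.28 to 0.31, so differences of that size in either direction would not have been seen. SP300 at 200 mg/kg had the smallest median difference from control of the 3. Against it SP30 was lower for 13 genes and higher for 0 (17.5% and 11.6% of all genes), among them Ppara (-0.76 ± 0.15, adjusted p = 0.000232), Cpt1a (-0.58 ± 0.12, adjusted p = 0.000486) and Slc25a20 (-0.42 ± 0.10, adjusted p = 0.00157). SP70 at 40 mg/kg was lower than SP300 at 200 mg/kg for 8 genes and higher for 0 (10.4% and 5.04%), among them Hsd17b4 (-0.27 ± 0.06, adjusted p = 0.00424) and Slc25a20 (-0.35 ± 0.10, adjusted p = 0.0141), and the count was 5 without SP70 mouse 3 or 5 or SP300 mouse 3 or 4.

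**Figure D4:**
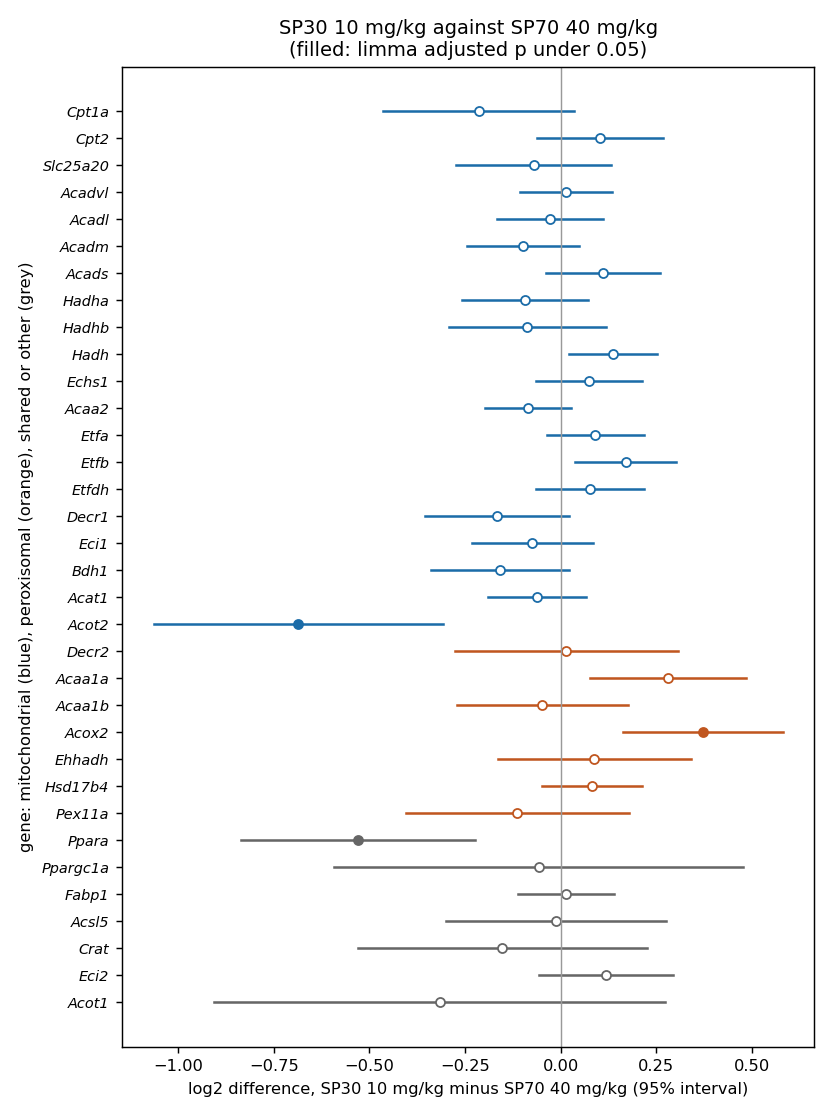
Log2 difference between SP30 at 10 mg/kg and SP70 at 40 mg/kg for each of the 34 genes (points), with its 95% interval (lines), coloured by compartment and filled where limma's adjusted p was under 0.05. The 3 filled points are Acot2 at -0.69, Ppara at -0.53 and Acox2 at 0.37, and the interval of Ppargc1a runs from -0.59 to 0.48.

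Other genes of fatty acid oxidation, listed by pathway but with earlier results of these data known, fell as well. Of 34 tested, 23, 25, 22 and 23 fell and 2, 2, 1 and 1 rose after SP70 at 20 and 40 mg/kg, SP30 and SP300 at 200 mg/kg. In these 4 comparisons 20.9%, 28.8%, 31.3% and 18.1% of all genes fell and 18.8%, 15.6%, 18.1% and 12.6% rose, which is the background for this list and the next 3. After SP70 at 10 mg/kg 3 fell, and after SP300 at 10 mg/kg 0 did. The list had a median log2 difference of -0.58 after SP70 at 40 mg/kg and -0.57 with SP30. The 6 with the smallest adjusted p were Amacr, a racemase of branched-chain acyl-CoA (-1.20 ± 0.13 after SP70 at 40 mg/kg and -1.37 ± 0.13 with SP30), Mlycd, which removes the malonyl-CoA that inhibits Cpt1a (-0.985 and -1.005, SE 0.09), the peroxisomal transporter Abcd3 (-0.71 and -0.67, SE 0.08), the thioesterases Acot13 (-0.91 and -0.91, SE 0.11) and Acot12 (-0.92 and -0.90, SE 0.11), and the peroxisomal reductase Pecr (-0.69 and -0.65, SE 0.08). Their adjusted p in limma was 2.89e-08 or less in both comparisons.

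Genes for the making of peroxisomes fell too. Of 12 tested, 7, 10, 10 and 6 fell and 0 rose after SP70 at 20 and 40 mg/kg, SP30 and SP300 at 200 mg/kg, and 0 passed after SP70 or SP300 at 10 mg/kg. The import receptors Pex5 (-0.61 and -0.67, SE 0.09) and Pex7 (-0.55 and -0.59, SE 0.08), the membrane biogenesis factors Pex16 (-0.54 and -0.62, SE 0.09) and Pex19 (-0.53 and -0.61, SE 0.10), Pex11g (-0.68 and -0.66, SE 0.11) and the docking factor Pex13 (-0.34 and -0.51, SE 0.10) had the smallest adjusted p, with values for SP70 at 40 mg/kg and SP30.

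Other regulators were mixed. Of 11 tested, 6, 5, 6 and 4 fell and 1, 0, 1 and 1 rose after SP70 at 20 and 40 mg/kg, SP30 and SP300 at 200 mg/kg, with 4 falling after SP70 at 10 mg/kg and 1 rising after SP300 at 10 mg/kg. Foxa2, a liver transcription factor of fasting, fell by 1.34 and 1.63 on the log2 scale (SE 0.20) after SP70 at 40 mg/kg and SP30, the coactivator Ppargc1b by 1.03 and 1.85 (SE 0.27), the mitochondrial deacetylase Sirt3 by 0.89 and 0.90 (SE 0.11), the nuclear receptor Esrra by 0.60 and 0.60 (SE 0.14) and the fasting factor Creb3l3 by 0.29 and 0.34 (SE 0.09). Rxra, the partner of PPARA on DNA, fell after SP30 (-0.39 ± 0.08, adjusted p = 5.72e-05) and was at -0.15 ± 0.08 after SP70 at 40 mg/kg (adjusted p = 0.0946).

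Of known PPARA targets outside oxidation, some rose and some fell. Of 7 tested, 1, 2, 3, 1 and 2 rose and 0, 1, 1, 2 and 1 fell after SP70 at 10, 20 and 40 mg/kg, SP30 and SP300 at 200 mg/kg, and 0 passed after SP300 at 10 mg/kg. After SP70 at 10 mg/kg 12.5% of all genes rose and 5.7% fell. The pantetheinase Vnn1 rose by 1.57 ± 0.33 after SP70 at 40 mg/kg and 1.09 ± 0.33 with SP30, and the desaturase Fads2 fell by 0.76 and 0.98 (SE 0.13). Pdk4, a brake on pyruvate oxidation, and the hormone Fgf21 rose after SP70 at 40 mg/kg (1.25 ± 0.37, adjusted p = 0.00603, and 0.99 ± 0.33, adjusted p = 0.0142) and were at -0.17 ± 0.37 and 0.11 ± 0.33 after SP30. The lipid droplet protein Plin2 fell after SP30 (-0.72 ± 0.23, adjusted p = 0.0102), and Cyp4a14, a fatty acid hydroxylase, was at -1.73 ± 0.80 there (adjusted p = 0.0717).

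Promoter windows of 300 bases were available in the RefSeq table for 29 of the 34 genes and not for Crat, Acaa2, Decr1, Hsd17b4 and Acat1. On either strand, the half-site AGGTCA was in the windows of 5 of 29 genes (17.2%: Acadm, Acadvl, Cpt1a, Echs1 and Fabp1) and in 16.3% of all 32851 windows of the table. The longer GGNCANAGGNCA was in 2 of 29 (6.9%: Acox2 and Fabp1) and in 0.801% of all windows, TGACG was in 8 of 29 (27.6%: Acadm, Acot2, Acox2, Ehhadh, Etfa, Etfdh, Ppara and Ppargc1a) and in 20.8%, and TGACGTCA, which contains TGACG, in 0 of 29 and in 1.79%. These are matches of letters in a short window, and genes with and without them are found among both the falling genes and those that did not pass the test: the half-site is in Acadm and Echs1 alike, and TGACG in Ppargc1a as in Acadm.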

How the data were processed

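The deposited values are the authors' probe set intensity on a linear scale, made with MAS5 per the submitters' processing notes, with no version; scaling, array batches and detection calls are not given in the sources used here. Total RNA was amplified and labelled with biotin, per the labels' protocols. The labels call the arrays of a group biological replicates, so each was taken as 1 mouse. No scaling was added. Probe sets that the annotation gives to 1 gene (34958 of 45101) were used, 1 per gene by highest mean signal. A gene was kept if 5 or more arrays gave a signal above 165 (the median over all arrays). limma 3.58.1 in R 4.3.3 fitted log2(signal + 12.5) with 7 group means over all 35 arrays, contrasts and trended empirical Bayes, and p was adjusted by Benjamini-Hochberg over 12670 genes. The pseudocount is the 10th percentile of all values. Simulated data with known changes were used to test the fit. With no detection calls, differences of dim genes are understated and those of genes near saturation are limited; 5 arrays per group bound the precision.

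Alternatives were pseudocounts of 1 and 50.0, no filter or 330 as its level, quantile normalization, centring each array on its median, the mean of all probe sets, a fit of only the compared groups, a block for the replicate number, and each mouse left out in turn; leaving out a mouse for the comparison of compartments and the fit of all probe sets were added after seeing the data. Arrays with the same replicate number deviated from their group means with a mean correlation of -0.000552 (105 pairs, -0.103 to 0.112), so the number was not used to pair mice. Members of the list that differed by at least 1 on the log2 scale, and Ppara, Ppargc1a, Cpt1a, Hadha, Acadm, Ehhadh and Acaa1b whatever their result, had their values given by mouse, as had others the text turns on, chosen after their values were seen; of other lists up to 6 genes with the smallest adjusted p after SP70 at 40 mg/kg or SP30 were named. The members, lists and rules were chosen with earlier results of these data known. Promoter sequences are those of RefSeq on GRCm38.p6.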

Additional observations from a re-analysis of the deposited data

Results flagged for a closer look

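In 14 of 238 sets of 5 mice (34 genes in 7 groups) the highest or lowest signal was set off from the others by more than 0.71 of the whole range (Dixon's 95% value for 5). Chance gives about 1 such set in 20. Mouse 1 of the SP30 group was the lowest of its group for Acadvl (17811.5, the others 19977.5 to 20212.9), Echs1 (16807.6, the others 19810.0 to 20233.1) and Bdh1 (11730.5, the others 14943.9 to 15652.4), and in the same group Cpt2 was low in mouse 2 (5872.3) and Acadm high in mouse 4 (35823.9). After SP300 at 200 mg/kg, Ppargc1a was high in mouse 1 (833.4, the others 314.1 to 436.8), Hadh was high in mouse 1 (56160.0) and Eci2 was low in mouse 5 (19458.2, the others 24428.7 to 25731.3). After SP70 at 40 mg/kg, Hadh was high in mouse 4 (49545.1) and Acot1 in mouse 3 (4724.9, the others 2135.2 to 2569.8), and after SP70 at 20 mg/kg Acat1 was low in mouse 2 (40545.8). In control mice, Hadhb and Pex11a were high in mouse 5 (30645.3 and 9657.7) and Acot2 in mouse 1 (2149.5).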

How the results depend on the processing

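Of 85 falls or rises against control among the 34 genes, 62 passed the threshold under every alternative, 20 were lost under at least 1 other processing and 14 without at least 1 mouse. Differences reversed in 2 cases, both for Etfdh with the mean of all probe sets: 0.44 after SP30 (adjusted p = 0.155) and 0.30 after SP300 at 200 mg/kg (adjusted p = 0.426). Calls were gained as well, among 119 results that had not passed. Of these, 11 passed with quantile normalization and 6 with only the groups compared. Centred arrays, the mean of all probe sets and the stricter filter each gained 5, and single mice left out gave 24 further passes. The counts of genes called moved by over 1.5 times as follows. SP70 at 10 mg/kg against control (0) gave 3 with quantile normalization, 2 with centred arrays, and 1 when all probe sets were averaged or only the groups compared were fitted. SP300 at 10 mg/kg against control (1) gave 2 with the stricter filter and 0 with no filter, quantile normalization, centred arrays, the mean of all probe sets, only the groups compared or the replicate block. With quantile normalization and centred arrays, in that order, SP70 at 20 against 10 mg/kg gave 9 and 9 (14), 40 against 20 gave 1 and 1 (4), 40 against 10 gave 11 and 15 (24), SP70 against SP300 at 10 mg/kg 13 and 14 (7), and SP70 at 40 against SP300 at 200 mg/kg 3 and 5 (8). SP30 against SP70 at 10 mg/kg gave 10 with centred arrays (24), and SP30 against SP70 at 40 mg/kg gave 5 with quantile normalization and 1 with only the groups compared (3). The cause was not tested.

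With quantile normalization the split after SP70 at 40 mg/kg was 3 higher and 17 lower, and over all genes centring turned the split after SP70 at 10 mg/kg to 10.3% higher and 10.5% lower, and after SP300 at 10 mg/kg to 0.655% and 0.41%. The mitochondrial minus peroxisomal value, with Eci2 and Crat as peroxisomal, was -0.064 after SP70 at 20 mg/kg, 0.064 after SP70 at 40 mg/kg and -0.0026 after SP300 at 200 mg/kg, and without the near-identical pairs -0.058 after SP300 at 10 mg/kg.

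Leaving out 1 mouse at a time gave 0 to 1 calls for SP70 at 10 mg/kg, 15 to 17 at 20 and 21 to 24 at 40 mg/kg against control, 24 to 25 for SP30, 0 to 2 and 16 to 18 for SP300 at 10 and 200 mg/kg. It gave 10 to 14 for SP70 at 20 against 10, 2 to 5 for 40 against 20 and 19 to 25 for 40 against 10 mg/kg, 21 to 26 for SP300 at 200 against 10, 19 to 25 for SP30 against SP70 and 29 to 30 against SP300 at 10 mg/kg, 4 to 11 for SP70 against SP300 at 10 mg/kg, 0 to 4 for SP30 against SP70 at 40, 9 to 15 against SP300 at 200, and 5 to 7 for SP70 at 40 against SP300 at 200 mg/kg. The compartment value stayed between 0.13 and 0.18 after SP70 at 40 mg/kg, and was -0.07 to -0.02 and 0.00 to 0.06 after SP70 at 10 and 20 mg/kg, -0.02 to 0.03 after SP30, and -0.01 to 0.05 and 0.08 to 0.14 after SP300 at 10 and 200 mg/kg.

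With the replicate number as a block, the counts against control were 0, 16, 24, 25, 0 and 17 for SP70 at 10, 20 and 40 mg/kg, SP30 and SP300 at 10 and 200 mg/kg; the calls lost under it were those of Acadvl after SP70 at 40 mg/kg, Cpt1a after SP300 at 10 mg/kg and Etfb after SP300 at 200 mg/kg. Signal above background could not be judged without detection calls, and the scaling by the authors is unknown, which limits differences as small as most of these.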

Other observations

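Several genes have more than 1 probe set, and these were fitted side by side on 26923 probe sets. For Cpt1a after SP300 at 200 mg/kg, the brightest probe set gave a log2 difference of 0.23 (adjusted p = 0.188), another 0.85 (adjusted p = 0.00155) and the dimmest 0.08 (adjusted p = 0.755). After SP300 at 10 mg/kg the same 3 gave 0.47, 0.87 and 0.13 (adjusted p = 0.0479, 0.0207 and 0.757). The Ppara probe sets all lay below control after SP30, at -0.68, -0.46 and -0.49 (adjusted p = 0.000386, 0.0666 and 0.00113).

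Probe sets that the annotation gives to both of a near-identical pair were left out of the tests of genes. The shared probe set of Acot1 and Acot2 differed by -0.72 after SP70 at 40 mg/kg, -1.03 after SP30 and -0.43 after SP300 at 200 mg/kg (adjusted p = 0.0409, 0.00287 and 0.28), on the side of Acot1 and not of Acot2. The 2 shared probe sets of Acaa1a and Acaa1b fell in all 3 of these groups, by 0.67 and 0.40, by 0.65 and 0.30, and by 0.63 and 0.39 on the log2 scale, as Acaa1b did and Acaa1a did not past the threshold.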
